A study of Mus musculus with 22 samples.

Results

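Mice heterozygous for altered alleles of both NANCI and Nkx2-1 (Double) were compared with wild-type mice (WT) in lung epithelial cells at 2 ages, 6 months and embryonic day E18.5, shortly before birth, and the Double effect was then compared between the ages. The groups compared hold 13 of the 22 libraries of the series. The other libraries, labelled NANCI and Nkx at E18.5 and Nkx at 6 months, shared the estimate of spread in the main fits. The comparison covered the 13034 genes measured at both ages, of 15958 genes at 6 months and 13750 at E18.5. Of those full sets, 5795 (36.3%) and 2008 (14.6%) differed between Double and WT. All 13034 genes were kept and sorted by whether the Double effect agreed between the ages, opposed, or passed the test at a single age. The 6-month Double mice (NANCI-CreERT2:RFP/+:Nkx2.1-GFP/+) gave 4 libraries and 6-month WT mice (NANCI-+/+) gave 3. E18.5 Double and E18.5 WT embryos of these genotypes gave 3 libraries each. Double mice carry 1 copy of each altered allele, named for a tamoxifen-inducible Cre and a red fluorescent protein (NANCI) and for a green fluorescent protein (Nkx2.1), and the other copy of each gene is unaltered. No treatment is named for any group. The sources used here do not give the strain or whether both alleles sit on the same chromosome. Nothing in the labels says that the libraries of a group are separate animals, and the p-values cover only the spread among libraries, part of which may be technical. The study's title asks how the NANCI and Nkx2.1 gene pair holds Nkx2.1 expression steady in lung development and homeostasis.

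NANCI is a long noncoding RNA whose gene neighbours Nkx2-1. NKX2-1 is a homeodomain protein needed to form the lung and thyroid. In the lung, NKX2-1 binds and activates genes of alveolar type II (AT2) cells, which secrete surfactant, and of club cells, which line the airways. In mice, loss of NKX2-1 from lung epithelium or lung tumours is known to be accompanied by genes of stomach and gut epithelium, the neighbouring endoderm, and by mucus genes. At E18.5 the gas-exchange region is still developing and the epithelium is dividing, while at 6 months the epithelium is mostly quiescent. A gene can therefore respond to the same genotype in both settings, in a single setting, or in opposite directions.

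The values are log2 expression, quantile-normalized within each age, so 1 unit is a 2-fold difference. The 2 ages were normalized apart and enriched differently: the 6-month cells were sorted as EpCAM+ (epithelial), CD45- (not leukocyte) and CD31- (not endothelial), and the E18.5 cells were enriched for EpCAM on magnetic beads with no other gate named. Levels were therefore compared within an age only, and the ages were compared through the Double minus WT differences. Read totals are not in these values. The lowest value of a library was shared by 4 to 161 genes in the 6-month libraries and by 15 to 37 in the E18.5 libraries, and gene levels near it carry little information. Expression of sex-linked genes showed the female pattern in all 4 Double and 1 of 3 WT libraries at 6 months, and in 2 of 3 Double and 2 of 3 WT libraries at E18.5. The epithelial marker Epcam averaged 13.74 ± 0.10 in 6-month Double and 12.98 ± 0.06 in 6-month WT libraries, and 13.68 ± 0.29 in E18.5 Double and 13.10 ± 0.25 in E18.5 WT libraries (SD over libraries). RNA of other cell types was present in every group. Over 10 measured endothelial markers, library means ran from 8.37 to 9.58 in 6-month Double and from 11.31 to 12.39 in 6-month WT. Over 12 measured leukocyte markers they ran from 4.25 to 5.22 in E18.5 Double and from 7.60 to 7.80 in E18.5 WT. In bulk samples such as these, fewer cells of a type and less RNA per cell cannot be told apart.

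**Figure D1:**
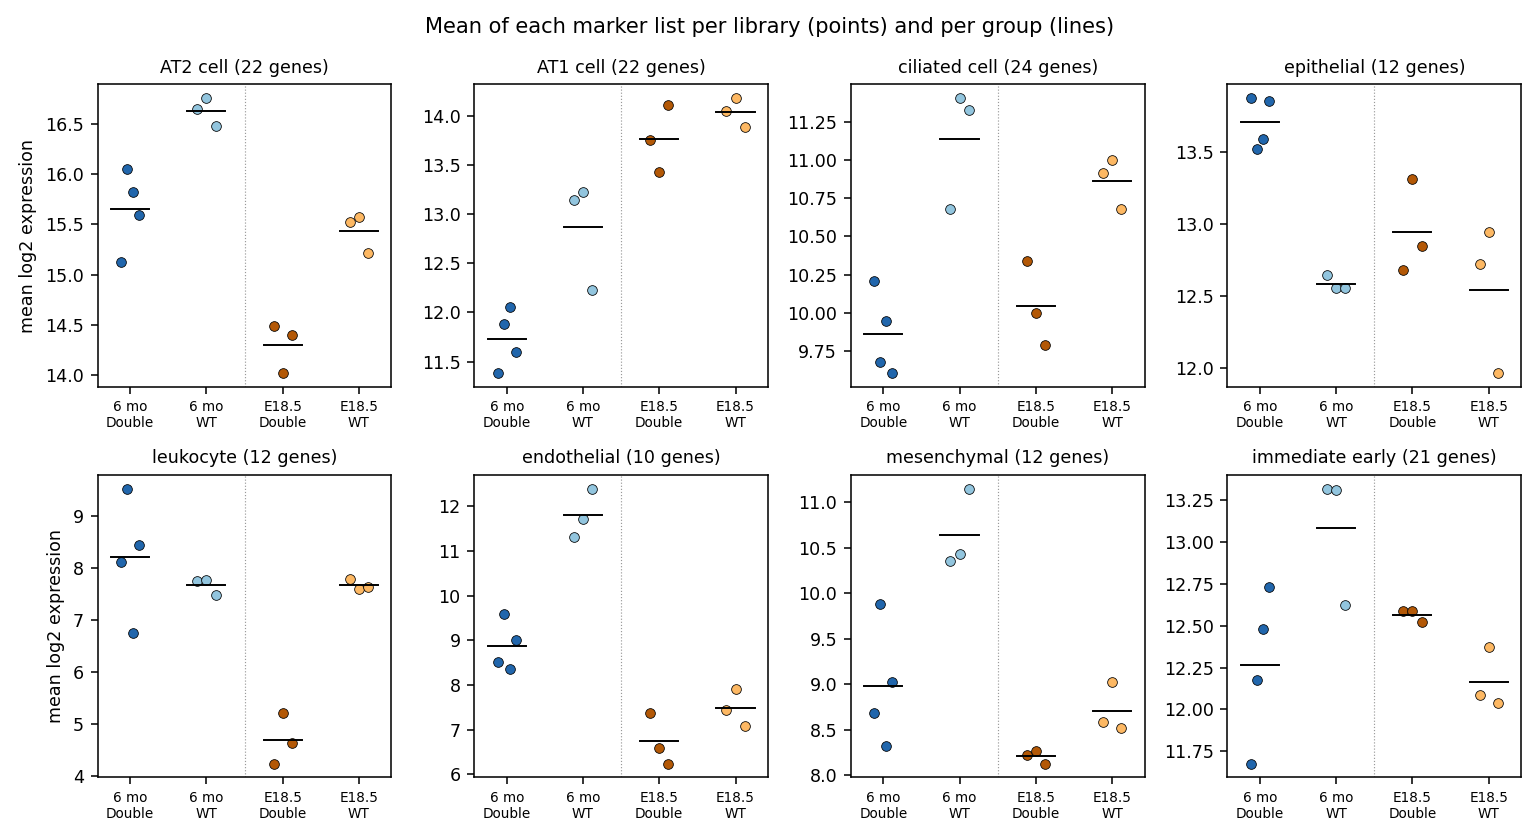
Mean log2 expression of each cell type's marker list in every library (vertical axis, log2 units; points are libraries), by age and genotype. The 6-month Double libraries lie below 6-month WT for endothelial markers, and the E18.5 Double libraries lie below E18.5 WT for leukocyte markers.

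Nkx2-1 itself, one of the targeted genes (chr12:56531958-56536908, minus strand; all positions are GRCm38), showed no passing difference at either age. It measured 13.75, 13.97, 14.43 and 13.96 in the 6-month Double libraries, against 14.17, 14.55 and 14.40 in 6-month WT. It measured 14.84, 14.69 and 14.90 in E18.5 Double, against 14.48, 14.84 and 14.93 in E18.5 WT. The Double and WT libraries overlapped at both ages. The Double minus WT difference was -0.35 ± 0.16 at 6 months (SE; limma adjusted p = 0.114) and 0.06 ± 0.14 at E18.5 (limma adjusted p = 0.842), and the difference between the ages was -0.41 ± 0.22 (limma adjusted p = 0.263). A test that was missed does not show equal levels. NANCI was not analysed here. Of 10 measured genes of the Nkx2-1 neighbourhood, 3 rose and 0 fell in Double at 6 months (all genes 38.1% called, 19.8% higher). Foxa1 alone rose and 0 fell at E18.5 (all genes 14.8% called, 7.27% higher). The shares called in either direction were not above those of all genes, while the shares called higher were, in a list of 10 genes. Foxa1 rose by 0.57 ± 0.13 (limma adjusted p = 0.013) at E18.5, a call lost without E18.5 WT replicate 1 and with the Double and WT libraries alone. Foxa1 and Foxa2 encode forkhead factors of endoderm, and Foxa2 differed by -0.30 ± 0.13 at 6 months and -0.11 ± 0.15 at E18.5, neither passing.

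Across the 13034 genes, the Double effect was broader at 6 months, and where a gene passed at both ages it mostly went the same way. At 6 months 4964 genes passed (38.1%), 2585 higher (19.8%) and 2379 lower (18.3%) in Double. At E18.5 1933 passed (14.8%), 948 higher (7.27%) and 985 lower (7.56%). The Double and WT libraries did not overlap in 5490 genes (42.1%) at 6 months and in 3580 (27.5%) at E18.5. The spread of the estimate was smaller at 6 months, with a median SE of 0.174 over genes against 0.215 at E18.5. Of 1241 genes passing at both ages, 92.7% had the same direction, and 66.2% of all genes did. The agreeing class held 1151 genes (8.83%), 538 higher in Double at both ages (4.13%) and 613 lower at both (4.7%). These were 59.5% of the E18.5 calls and 23.2% of the 6-month calls. The opposing class held 90 genes (0.691%). Across genes the 6-month and E18.5 differences had a Pearson correlation of 0.508 and a Spearman correlation of 0.470, as a description, since genes are not independent replicates.

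The difference of differences, the 6-month effect minus the E18.5 effect, was tested in 1 model over both ages. It passed in 1372 genes (10.5%), 693 above 0 (5.32%) and 679 below 0 (5.21%), with a median SE of 0.292. A gene was placed in a single-age class when it passed at that age, missed at the other and passed this test: 860 genes were of the 6-month class (6.6%) and 211 of the E18.5 class (1.62%). A further 2863 genes passed at 6 months and 481 at E18.5 without a passing difference between the ages, so for most genes called at a single age the ages were not shown to differ. The 1003 agreeing genes without a passing difference of differences are likewise not shown to have equal effects.

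The class sizes depended on which libraries shared the fit, on single E18.5 libraries and on how sex was treated. With the Double and WT libraries alone in the fit, 890 genes passed at E18.5 and 810 in the difference of differences, and 538 of the 1151 agreeing, 32 of the 90 opposing, 501 of the 860 six-month and 86 of the 211 E18.5 class members were the same genes. The E18.5 count fell to 1137 without E18.5 WT replicate 1, to 1175 without E18.5 Double replicate 2 and to 1274 without E18.5 Double replicate 3. The agreeing count fell to 716 without E18.5 Double replicate 2 and to 725 without E18.5 WT replicate 1, and the opposing count to 46, 53 and 58 without E18.5 WT replicate 1, Double replicate 2 and Double replicate 3. The E18.5 class held 109 genes without E18.5 WT replicate 1, 138 without E18.5 Double replicate 2 and 328 without E18.5 WT replicate 3. With a term for sex pattern, 3256 genes passed at 6 months, and 799 of the 1151 agreeing, 50 of the 90 opposing, 494 of the 860 six-month and 112 of the 211 E18.5 class members were the same genes.

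**Figure D2:**
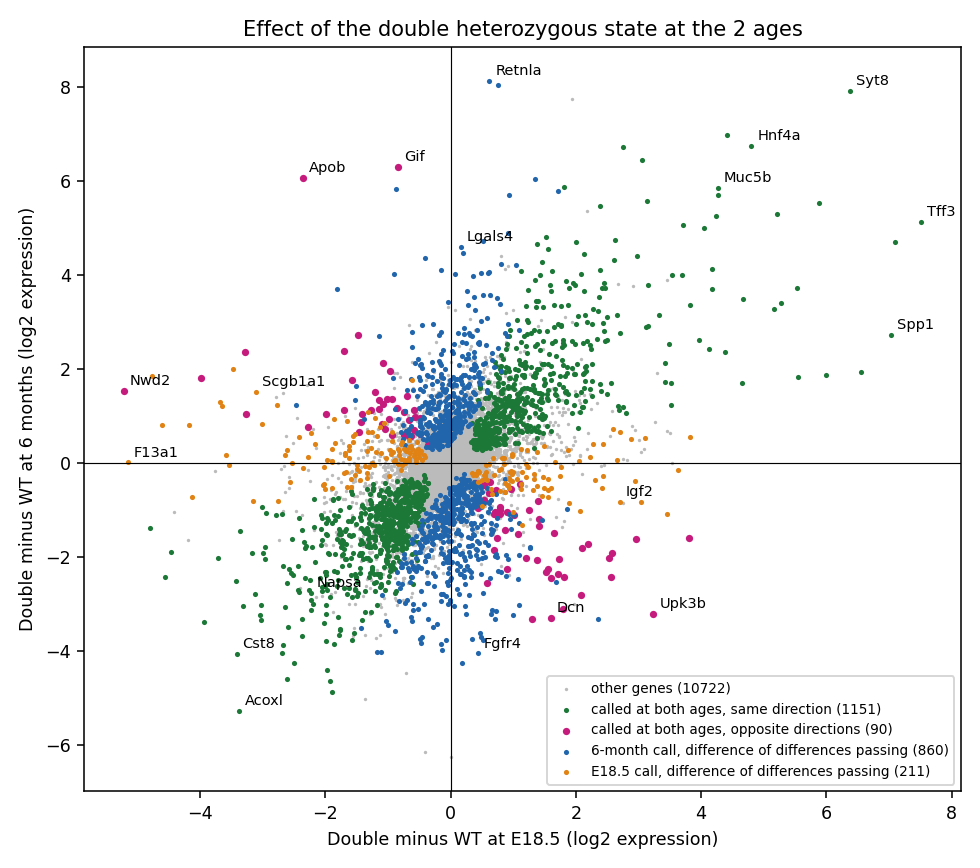
Double minus WT difference of each of the 13034 genes at 6 months (vertical axis, log2) and at E18.5 (horizontal axis, log2), coloured by class. The 1151 agreeing genes lie at the lower left and upper right, and the 90 opposing genes at the upper left and lower right. Genes of the single-age classes missed the threshold at the other age, and some lie well off both axes.

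Among the opposing genes, those higher in Double at 6 months and lower in Double at E18.5 (42 genes) included Apob and Gif, which serve lipid and vitamin transport. Apob (ENSMUSG00000020609, chr12:7977648-8016835, plus strand) encodes the apolipoprotein that carries lipid out of liver and gut cells. It measured 12.03, 12.25, 13.12 and 13.79 in 6-month Double, against 7.31, 5.89 and 6.97 in 6-month WT. It measured 4.09, 3.52 and 3.84 in E18.5 Double, against 5.73, 5.39 and 7.40 in E18.5 WT. All Double libraries lay above WT at 6 months and below WT at E18.5, with no overlap at either age. The difference was 6.07 ± 0.48 at 6 months, a 67.2-fold higher level (limma adjusted p = 7.84e-06), and -2.35 ± 0.55 at E18.5 (limma adjusted p = 0.0135). The ages differed by 8.43 ± 0.77 (limma adjusted p = 1.26e-06). The E18.5 call was lost without E18.5 Double replicate 2, while the difference of differences passed without any 1 library.

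The promoter of Apob is shown with those of 3 agreeing genes described below, as the stretches nearest to where a change in transcription would be read out. Each is 300 bases from RefSeq (GRCm38.p6), 250 before the start and 50 after it, 5′ to 3′ on the gene's plus strand, with every CAAG and its reverse complement CTTG, the core of known NKX2-1 sites, in capitals. They are Apob (chr12:7977427-7977726), Syt8 (chr7:142434600-142434899, the first of 3 promoters listed), Cst8 (chr2:148798589-148798888) and Sftpb (chr6:72304360-72304659).
Apob: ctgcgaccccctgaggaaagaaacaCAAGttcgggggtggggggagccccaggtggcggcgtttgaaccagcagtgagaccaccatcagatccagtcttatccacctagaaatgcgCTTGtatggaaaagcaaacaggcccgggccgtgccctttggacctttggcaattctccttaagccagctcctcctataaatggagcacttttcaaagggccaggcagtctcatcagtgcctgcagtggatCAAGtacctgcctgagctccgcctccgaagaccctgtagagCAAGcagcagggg
Syt8: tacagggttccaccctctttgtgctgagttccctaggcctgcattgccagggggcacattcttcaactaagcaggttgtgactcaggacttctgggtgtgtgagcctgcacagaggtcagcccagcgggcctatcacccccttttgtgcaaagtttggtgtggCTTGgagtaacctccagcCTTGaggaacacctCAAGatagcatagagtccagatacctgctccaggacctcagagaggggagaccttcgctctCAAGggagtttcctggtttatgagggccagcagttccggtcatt
Cst8: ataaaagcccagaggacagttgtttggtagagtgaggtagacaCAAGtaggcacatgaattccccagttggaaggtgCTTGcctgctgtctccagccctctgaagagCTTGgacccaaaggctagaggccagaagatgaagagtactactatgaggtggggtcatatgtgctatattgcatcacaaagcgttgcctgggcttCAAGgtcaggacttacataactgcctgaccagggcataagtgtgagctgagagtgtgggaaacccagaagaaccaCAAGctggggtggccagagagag
Sftpb: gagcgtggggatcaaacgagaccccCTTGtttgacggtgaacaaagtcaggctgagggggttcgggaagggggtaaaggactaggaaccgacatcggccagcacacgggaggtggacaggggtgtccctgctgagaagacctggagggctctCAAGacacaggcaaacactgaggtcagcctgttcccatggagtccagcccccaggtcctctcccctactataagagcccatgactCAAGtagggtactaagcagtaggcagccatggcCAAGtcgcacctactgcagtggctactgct
The Cst8 stretch holds 5 such cores, and the Apob, Syt8 and Sftpb stretches hold 4 each, whether the gene rose or fell. None holds the 6-letter form CAAGTG or its reverse complement CACTTG. The 4-letter core is in 90.6% of all 32851 promoters of the table, with a median of 2 per promoter, and was searched after the values were seen. The 6-letter form is in 13.6% of all promoters, in 10.9% of the 10077 matched genes measured at both ages, in 13.3% of the agreeing genes and in 1 of 62 matched opposing genes. A match is a description of letters, not a bound site.

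Gif (ENSMUSG00000024682, chr19:11747554-11763447, plus strand) encodes gastric intrinsic factor, the stomach protein that binds vitamin B12. It measured 9.88, 11.75, 12.71 and 12.31 in 6-month Double, against 5.57, 4.55 and 5.95 in 6-month WT. It measured 10.78, 10.39 and 10.45 in E18.5 Double, against 11.40, 11.40 and 11.34 in E18.5 WT. The groups did not overlap at either age, but the sizes were unequal: 6.30 ± 0.57 at 6 months (limma adjusted p = 1.55e-05) and -0.84 ± 0.15 at E18.5 (limma adjusted p = 0.00317). The ages differed by 7.14 ± 0.63 (limma adjusted p = 8.67e-07).

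Nwd2 and Slfn2 had the larger change in the embryo. Nwd2 (chr5:63649102-63810546, plus strand) measured 7.58, 7.95, 7.74 and 7.41 in 6-month Double, against 5.89, 5.97 and 6.50 in 6-month WT, a difference of 1.55 ± 0.29. It measured 1.0, 1.07 and 3.35 in E18.5 Double, against 6.96, 7.07 and 7.02 in E18.5 WT, a difference of -5.21 ± 0.55. The E18.5 Double libraries were far below WT, 2 of them at the lowest value of the library, where a fold is imprecise. The difference of differences was 6.76 ± 0.63 for Nwd2 and 5.81 ± 0.77 for Slfn2 (limma adjusted p = 1.41e-06 and 7.95e-05), and Slfn2, a schlafen-family gene known from quiescent mouse T cells, also had 2 E18.5 Double libraries at the lowest value. The leukocyte marker list was lower in E18.5 Double beside it, and its part in the result was not tested. Kng2, a kininogen gene, differed by 2.36 ± 0.73 at 6 months and -3.28 ± 0.84 at E18.5. The Kng2 calls were lost without 6-month Double replicate 1 or 6-month WT replicate 2 at 6 months (adjusted p up to 0.120) and without E18.5 Double replicate 3 or E18.5 WT replicate 1 at E18.5 (adjusted p up to 0.0780).

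Another 48 opposing genes were lower in Double at 6 months and higher at E18.5, and those named by size encode matrix, membrane and growth-factor-binding proteins. Upk3b (ENSMUSG00000042985, chr5:136038496-136046487, plus strand), a uroplakin also used as a marker of mesothelium, measured 5.45, 5.89, 4.55 and 7.04 in 6-month Double, against 8.53, 9.19 and 9.12 in 6-month WT. It measured 6.47, 8.03 and 8.17 in E18.5 Double, against 4.97, 4.29 and 3.70 in E18.5 WT. Double lay wholly below WT at 6 months and wholly above it at E18.5. The differences were -3.21 ± 0.62 and 3.24 ± 0.53, and the difference of differences was -6.45 ± 0.86 (limma adjusted p = 7.95e-05).

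Dcn (ENSMUSG00000019929, chr10:97479609-97518143, plus strand), the gene of the collagen-binding proteoglycan decorin, measured 5.45, 6.68, 5.80 and 7.08 in 6-month Double, against 8.94, 9.44 and 10.23 in 6-month WT. It measured 6.64, 7.11 and 6.90 in E18.5 Double, against 5.6, 4.76 and 5.48 in E18.5 WT. The groups again did not overlap, with differences of -3.29 ± 0.41 and 1.6 ± 0.43 and a difference of differences of -4.89 ± 0.62 (limma adjusted p = 5.63e-05). Igfbp4 and Igfbp3 bind insulin-like growth factors. Igfbp4 differed by -3.10 ± 0.34 at 6 months and 1.79 ± 0.49 at E18.5, and Igfbp3 by -2.44 ± 0.32 and 1.6 ± 0.43. The E18.5 calls of these 3 genes rested on single libraries. For Dcn the call was lost without E18.5 Double replicate 2, Double replicate 3 or WT replicate 2, with adjusted p up to 0.0906. For Igfbp4 it was lost without E18.5 Double replicate 2 or 3 or WT replicate 1 or 3 (adjusted p up to 0.111), and for Igfbp3 without E18.5 Double replicate 2 or 3 or WT replicate 1 or 2 (adjusted p up to 0.113). Their differences of differences passed without any 1 library.

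Cys1, whose product sits in the ciliary membrane, differed by -2.42 ± 0.46 at 6 months and 2.56 ± 0.50 at E18.5. Mfap5, of elastic microfibrils, differed by -1.59 ± 0.55 (limma adjusted p = 0.0423) and 3.80 ± 0.75, with 2 E18.5 WT libraries at the lowest value, and its 6-month call was lost without 6-month Double replicate 1 or 4 or 6-month WT replicate 1 or 3 (adjusted p up to 0.149). Over 12 measured mesenchymal markers, library means ran from 8.32 to 9.88 in 6-month Double and from 10.35 to 11.15 in 6-month WT, and from 8.13 to 8.27 in E18.5 Double and from 8.52 to 9.02 in E18.5 WT. The list mean was thus lower in Double at both ages, and Dcn was its 1 opposing member. The part of mesenchymal RNA in the 6-month side of these genes was not tested. With a term for sex pattern the 6-month calls of Slfn2, Kng2 and Mfap5 were lost, and with the Double and WT libraries alone in the fit the E18.5 calls of Apob, Igfbp4 and Igfbp3 and the 6-month call of Mfap5, which was lost without the mean-variance trend too. The differences of differences of these genes passed under both settings.

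**Figure D3:**
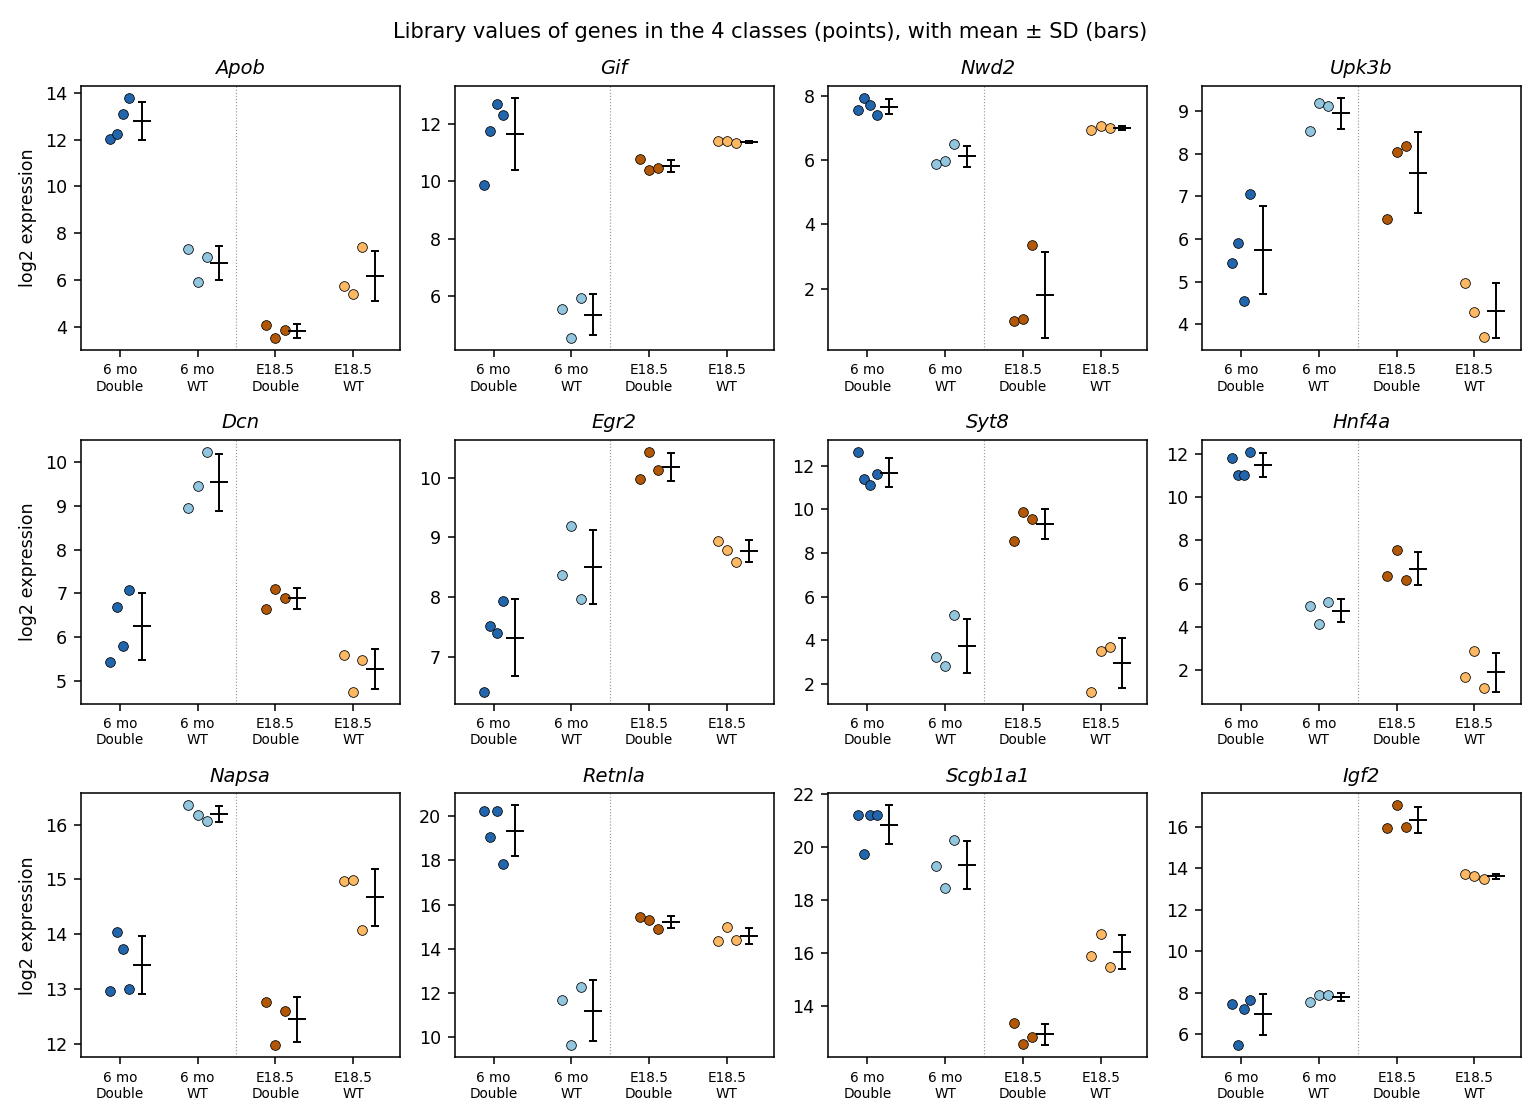
Log2 expression (vertical axes) of selected genes in every library, with 6-month Double, 6-month WT, E18.5 Double and E18.5 WT from left to right; points are libraries and bars are group means ± SD. Apob shows Double above WT at 6 months and below it at E18.5, and the agreeing genes show Double on the same side of WT at both ages.

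Genes higher in Double at both ages included mucus and gut genes. Syt8 (ENSMUSG00000031098, chr7:142434850-142440396, plus strand), of the synaptotagmin family of vesicle proteins, measured 12.64, 11.38, 11.10 and 11.61 in 6-month Double, against 3.25, 2.85 and 5.15 in 6-month WT. It measured 8.56, 9.89 and 9.57 in E18.5 Double, against 1.66, 3.52 and 3.70 in E18.5 WT. Every Double library exceeded every WT library at both ages, by 7.93 ± 0.60 and 6.38 ± 0.56 on the log2 scale (limma adjusted p = 5.62e-06 and 4.09e-05). E18.5 WT replicate 1 was at the lowest value of its library (1.66), so the E18.5 size is imprecise. The ages were not shown to differ (1.55 ± 0.87, limma adjusted p = 0.286).

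Hnf4a (ENSMUSG00000017950, chr2:163506808-163572910, plus strand) encodes a nuclear receptor that drives gut and liver epithelial genes. It measured 11.83, 11.01, 11.05 and 12.12 in 6-month Double, against 4.95, 4.13 and 5.15 in 6-month WT. It measured 6.36, 7.55 and 6.18 in E18.5 Double, against 1.66, 2.89 and 1.13 in E18.5 WT, where 2 libraries were at the lowest value. Double exceeded WT throughout, by 6.76 ± 0.48 and 4.80 ± 0.68. Of 14 measured stomach and gut genes, 8 rose and 1 fell at 6 months (all genes 38.1% called), and 6 rose and 0 fell at E18.5 (all genes 14.8% called). Their median difference was 1.98 and 0.52, beside 0.07 and 0.02 over all genes, and 6 agreed. Ctse, a gastric aspartic protease gene, averaged 10.52 ± 1.05 in 6-month Double and 5.76 ± 0.42 in 6-month WT, and 7.54 ± 0.11 in E18.5 Double and 4.92 ± 0.47 in E18.5 WT. Its rise was larger at 6 months (difference of differences 2.15 ± 0.61, limma adjusted p = 0.0284). Guca2a, the gut peptide guanylin, rose by 4.70 ± 0.69 at 6 months and 7.09 ± 0.96 at E18.5, where 1 WT library was at the lowest value.

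Of 17 measured goblet and mucus genes, 15 rose and 1 fell at 6 months (all genes 38.1% called). At E18.5, 11 rose and 1 fell (all genes 14.8% called), and the medians were 2.60 and 2.76. Of the 17, 11 agreed and 3 passed the difference of differences, beside 8.83% and 10.5% of all genes. The gel-forming mucin gene Muc5b measured 17.17, 17.01, 17.66 and 18 in 6-month Double, against 11.22, 10.58 and 12.97 in 6-month WT. It measured 11.73, 12.74 and 12.13 in E18.5 Double, against 5.73, 8.88 and 9.20 in E18.5 WT. The neighbouring mucin gene Muc5ac rose by 5.02 ± 0.31 at 6 months and 4.05 ± 0.51 at E18.5, and Muc5b by 5.87 ± 0.46 and 4.26 ± 0.89. Neither mucin overlapped between the genotypes. Tff3, a trefoil peptide of goblet cells, rose by 5.14 ± 0.70 and 7.51 ± 0.69, with 2 of the 6-month WT libraries and 1 E18.5 WT library at the lowest value. Spdef, the goblet cell transcription factor, rose by 2.60 ± 0.20 and 2.18 ± 0.44. Ern2, the stress sensor of the endoplasmic reticulum in mucous epithelium, rose at both ages, by 5.54 ± 0.25 and 5.88 ± 0.46, with a difference of differences of -0.34 ± 0.54 (limma adjusted p = 0.746).

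Ppp1r3a, a subunit that targets a phosphatase to glycogen and is best known from muscle, measured 11.11, 10.80, 11.07 and 11.08 in 6-month Double, against 4.74, 6.56 and 5.79 in 6-month WT. It measured 12.37, 11.43 and 11.81 in E18.5 Double, against 6.30, 5.90 and 7.79 in E18.5 WT. The genotypes were far apart at both ages, by 5.32 ± 0.34 and 5.21 ± 0.44. The glycogen list around it did not follow. Of 13 measured genes, 4 rose and 4 fell at 6 months (median -0.08, all genes 38.1% called). At E18.5, 2 rose and 2 fell (median -0.06, all genes 14.8% called). Ppp1r3c, a relative of Ppp1r3a, was in the E18.5 class, with -0.11 ± 0.21 at 6 months and -1.49 ± 0.18 at E18.5.

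Dividing-cell genes were higher in Double at both ages. Of 30 measured cell cycle and mitosis genes, 18 rose and 1 fell at 6 months (median 1.46, all genes 38.1% called). At E18.5, 24 rose and 0 fell (median 1.56, all genes 14.8% called). Of the 30, 17 agreed, beside 8.83% of all genes. Mki67, a marker of dividing cells, measured 10.68, 10.37, 10.84 and 9.58 in 6-month Double, against 8.10, 9.71 and 7.08 in 6-month WT. It measured 13.12, 13.51 and 13.28 in E18.5 Double, against 11.13, 10.71 and 11.58 in E18.5 WT. The groups overlapped at 6 months, where replicate 4 of Double lay below replicate 2 of WT, and not at E18.5. The rise was 2.07 ± 0.63 at 6 months (limma adjusted p = 0.0241) and 2.17 ± 0.22 at E18.5 (limma adjusted p = 8.62e-05). The 6-month call was lost without 6-month Double replicate 1 or 3 or 6-month WT replicate 1 or 3. Of 27 DNA replication genes, 16 rose and none fell at each age, with medians of 0.70 and 0.94. Over all genes 38.1% were called at 6 months and 14.8% at E18.5.

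A pair of mitosis genes departed from the list. Plk1, a mitotic kinase gene, rose by 3.80 ± 0.29 at 6 months and 1.59 ± 0.27 at E18.5 (difference of differences 2.21 ± 0.40, limma adjusted p = 0.00128). Plk1 ends next to the end of Ern2 on the opposite strand (chr7:122159439-122169873 and chr7:122169893-122186207), and no source used here says whether strand was used in counting, so reads of the pair may not be told apart. Bub1, a spindle checkpoint kinase gene, measured 7.29, 6.76, 7.86 and 6.00 in 6-month Double, against 8.99, 9.26 and 8.86 in 6-month WT. It measured 9.98, 9.36 and 10.10 in E18.5 Double, against 9.61, 8.81 and 10.33 in E18.5 WT. Bub1 thus fell at 6 months (-2.06 ± 0.37, limma adjusted p = 0.00123) with overlapping groups at E18.5 (0.23 ± 0.30). It lies head to head with Acoxl, which fell at both ages, and the part of that neighbour was not tested.

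Genes lower in Double at both ages included AT2 genes and lipid synthesis genes. Of 22 AT2 genes, 14 fell and 3 rose at 6 months (median -1.24, all genes 38.1% called). At E18.5, 16 fell and 1 rose (median -1.19, all genes 14.8% called). Of the 22, 13 agreed, beside 8.83% of all genes. Napsa (ENSMUSG00000002204, chr7:44572380-44586862, plus strand), the protease that processes surfactant protein B, measured 12.98, 14.04, 13.74 and 13.02 in 6-month Double, against 16.35, 16.16 and 16.07 in 6-month WT. It measured 12.77, 11.98 and 12.61 in E18.5 Double, against 14.97, 14.98 and 14.08 in E18.5 WT. Every Double library was below every WT library, with differences of -2.75 ± 0.24 and -2.23 ± 0.26 (limma adjusted p = 1.30e-05 and 0.000196). Sftpb, surfactant protein B, differed by -1.28 ± 0.34 and -1.04 ± 0.28, and its E18.5 call (limma adjusted p = 0.0261) was lost without E18.5 Double replicate 2, WT replicate 1 or WT replicate 2. Sftpc, the surfactant gene most used to mark AT2 cells, measured 18.64, 21.19, 19.74 and 20.24 in 6-month Double, against 21.19 in all 3 libraries of 6-month WT, the highest value of the scale. It measured 18.26, 17.92 and 18.26 in E18.5 Double, against 19.62, 19.62 and 18.78 in E18.5 WT. Differences at the top of the scale are changes of rank. The Sftpc difference was -1.24 ± 0.81 at 6 months (limma adjusted p = 0.260) and -1.20 ± 0.31 at E18.5 (limma adjusted p = 0.0207). The E18.5 call for Sftpc was lost without E18.5 Double replicate 2, WT replicate 1 or WT replicate 2, and under joint quantile normalization of both ages. With the Double and WT libraries alone the E18.5 calls of Sftpb and Sftpc were lost, and with a term for sex pattern the 6-month call of Sftpb. Slc34a2, the AT2 phosphate transporter, also fell, with differences of -2.21 ± 0.30 and -1.26 ± 0.28.

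The largest agreeing decreases named by the rule included genes outside the AT2 list. Acoxl (ENSMUSG00000027380, chr2:127838876-128123873, plus strand), an acyl-CoA oxidase-like gene, measured 8.21, 8.95, 9.78 and 8.84 in 6-month Double, against 14.38, 14.38 and 13.88 in 6-month WT. It measured 9.49, 7.11 and 9.12 in E18.5 Double, against 12.07, 11.95 and 11.82 in E18.5 WT. No library overlapped, and the differences were -5.27 ± 0.28 and -3.37 ± 0.60. Cst8, a cystatin gene, measured 5.86, 4.45, 6.53 and 4.67 in 6-month Double, against 9.97, 9.92 and 8.44 in 6-month WT. It measured 5.25, 5.57 and 5.47 in E18.5 Double, against 9.02, 8.75 and 8.75 in E18.5 WT. The groups were apart at both ages, with differences of -4.06 ± 0.58 and -3.41 ± 0.37 and a difference of differences of -0.65 ± 0.74 (limma adjusted p = 0.636). Cped1 differed by -3.37 ± 0.52 and -3.94 ± 0.61. Gdnf, a growth factor of nerve and kidney, differed by -3.04 ± 0.40 and -3.31 ± 0.74. Tox2, an HMG-box factor, differed by -3.22 ± 0.79 and -3.03 ± 0.80, with the E18.5 call lost without E18.5 Double replicate 2 or 3 or WT replicate 1 or 2, and with the Double and WT libraries alone. For Tox2, 1 Double library at each age was at the lowest value.

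Of 29 cholesterol and fatty acid synthesis genes, 20 fell and 3 rose at 6 months (median -0.92, all genes 38.1% called). At E18.5, 9 fell and 2 rose (median -0.43, all genes 14.8% called). Elovl6, a fatty acid elongase gene, rose by 1.92 ± 0.35 and 2.12 ± 0.42.

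Cilia genes were lower in Double at both ages. Of 24 ciliated cell genes, 22 fell and 0 rose at 6 months (median -1.44, all genes 38.1% called). At E18.5, 12 fell and 0 rose (median -0.85, all genes 14.8% called). Of the 24, 12 agreed, beside 8.83% of all genes. Foxj1, the transcription factor of motile cilia, averaged 12.09 ± 0.33 in 6-month Double and 13.87 ± 0.25 in 6-month WT, and 9.88 ± 0.53 in E18.5 Double and 10.72 ± 0.94 in E18.5 WT. It fell at 6 months (-1.78 ± 0.22) and missed the threshold at E18.5 (-0.84 ± 0.43). Mcidas and Ccno, which act earlier in making multiciliated cells, passed at neither age. Hydin, a central-pair protein gene, was the 1 member of the 6-month class, with a difference of differences of -1.6 ± 0.44 (limma adjusted p = 0.0236) that was lost without E18.5 Double replicate 1, E18.5 WT replicate 1 or 6-month WT replicate 2 or 3, and with a term for sex pattern.

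Other agreeing genes spanned signalling, transport and antigen presentation. The secreted guidance protein gene Ntn1 measured 8.01, 8.41, 7.86 and 8.71 in 6-month Double, against 11.11, 11.13 and 11.65 in 6-month WT. It measured 5.57, 6.05 and 6.10 in E18.5 Double, against 8.32, 8.61 and 8.73 in E18.5 WT. The genotypes were apart at both ages, with differences of -3.05 ± 0.31 and -2.65 ± 0.33. The Wnt ligand gene Wnt3a and the Wnt feedback gene Nkd1 also fell at both ages, with differences of -3.87 ± 0.61 and -2.68 ± 0.31 for Wnt3a and -2.35 ± 0.29 and -1.15 ± 0.29 for Nkd1. The water channel gene Aqp1 averaged 9.85 ± 0.67 in 6-month Double and 13.19 ± 0.58 in 6-month WT, and 11.79 ± 0.41 in E18.5 Double and 14.81 ± 0.56 in E18.5 WT. Tg, the thyroid prohormone thyroglobulin, differed by -2.55 ± 0.73 and -2.61 ± 0.72, with calls at 0.0177 and 0.0292 (limma adjusted p). Leaving out any of 5 E18.5 libraries (all but Double replicate 1) ended the E18.5 call of Tg, and leaving out 6-month WT replicate 2, or a term for sex pattern, ended its 6-month call.

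Of 8 MHC class II genes, which present antigen on leukocytes and are also expressed in AT2 cells, 6 fell at 6 months (all genes 38.1% called) and 2 at E18.5 (all genes 14.8% called) and none rose, with medians of -1.0 and -1.06. Of 12 leukocyte markers, 1 fell and 2 rose at 6 months and 10 fell and 0 rose at E18.5 beside them, with medians of 0.82 and -2.89, and of 22 AT2 genes 14 and 16 fell. The part of leukocyte RNA in the MHC class II values was not tested. H2-Aa differed by -1.23 ± 0.36 and -1.64 ± 0.29, its 6-month call lost without 6-month WT replicate 3 and with a term for sex pattern. Cd74, the invariant chain, differed by -1.16 ± 0.28 and -1.30 ± 0.35, its E18.5 call lost without any of 5 libraries (all but WT replicate 3) and with the Double and WT libraries alone. Esr1, the gene of estrogen receptor alpha, rose by 2.64 ± 0.41 at 6 months and 2.33 ± 0.41 at E18.5. The altered NANCI allele is named for CreERT2, which contains an estrogen receptor domain, and whether reads of that allele were counted for Esr1 was not tested.

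In 148 agreeing genes the size also differed between the ages, and in 126 of them the change was larger at 6 months. Agr2, a protein disulfide isomerase of mucous cells, measured 13.65, 13.09, 12.64 and 12.44 in 6-month Double, against 5.40, 5.69 and 7.60 in 6-month WT. It measured 10.22, 11.27 and 10.15 in E18.5 Double, against 7.76, 7.49 and 8.12 in E18.5 WT. Double was above WT at both ages, by 6.73 ± 0.46 and 2.76 ± 0.39, and the 6-month rise was the larger by 3.97 ± 0.65 (limma adjusted p = 0.000543). Vsig1, a junction protein of stomach epithelium, rose by 5.48 ± 0.48 and 2.39 ± 0.41. Pgc, a pepsinogen gene that AT2 cells also express, rose by 4.28 ± 0.41 and 1.46 ± 0.37, against the direction of most of the AT2 list, with its E18.5 call lost without E18.5 Double replicate 2 or 3 or WT replicate 1. Etv5, an ETS factor of AT2 cells, changed by -2.41 ± 0.35 and -0.63 ± 0.14 (difference of differences -1.78 ± 0.41, limma adjusted p = 0.00737). With the Double and WT libraries alone the E18.5 calls of Pgc and Etv5 were lost, and with a term for sex pattern the age difference of Etv5.

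In the other 22 agreeing genes the change was larger at E18.5. Fcgbp, a mucus protein that binds IgG, measured 11.41, 11.03, 11.45 and 10.85 in 6-month Double, against 9.49, 8.98 and 9.59 in 6-month WT. It measured 12.09, 13.04 and 11.17 in E18.5 Double, against 6.21, 7.52 and 5.93 in E18.5 WT. The rise was 1.83 ± 0.24 at 6 months and 5.55 ± 0.50 at E18.5 (difference of differences -3.71 ± 0.59, limma adjusted p = 0.000409). Spp1, the secreted phosphoprotein osteopontin, rose by 2.73 ± 0.74 and 7.04 ± 0.62, and Pkp1, a desmosome protein of squamous epithelium, by 1.88 ± 0.52 and 5.99 ± 0.44. For Spp1, 1 E18.5 WT library was at the lowest value. The 6-month calls of Spp1 and Pkp1 were lost without 6-month WT replicate 2, and that of Spp1 also with a term for sex pattern. Of 6 measured basal and squamous genes, 3 rose at 6 months (all genes 38.1% called) and 4 at E18.5 (all genes 14.8% called) and none fell. The difference of differences passed below 0 in 1 of them, Pkp1, and above 0 in 1 other (all genes 10.5% called).

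The 6-month class held 860 genes, and those higher in Double included more genes of secretory and gut epithelium. Retnla (ENSMUSG00000061100, chr16:48842551-48844461, plus strand), a secreted resistin-like protein of allergic and injured lung, measured 20.24, 19.04, 20.24 and 17.83 in 6-month Double, against 11.70, 9.65 and 12.26 in 6-month WT. It measured 15.44, 15.30 and 14.91 in E18.5 Double, against 14.38, 15.01 and 14.39 in E18.5 WT. The groups were far apart at 6 months and overlapped at E18.5. The difference was 8.13 ± 0.66 at 6 months (limma adjusted p = 9.19e-06) and 0.62 ± 0.24 at E18.5 (limma adjusted p = 0.105), and the difference of differences was 7.51 ± 0.77 (limma adjusted p = 4.22e-06).

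Lgals4, a galectin of gut epithelium, measured 13.69, 12.62, 12.12 and 12.99 in 6-month Double, against 7.83, 8.22 and 8.70 in 6-month WT. It measured 8.08, 8.71 and 7.82 in E18.5 Double, against 7.60, 8.46 and 8.05 in E18.5 WT. Cldn2, a tight junction protein that forms cation pores, rose by 4.11 ± 0.20 at 6 months against -0.16 ± 0.34 at E18.5. Lgals4 and Cldn2 were thus raised at 6 months with overlapping groups at E18.5, although both are on the stomach and gut list whose other passing members mostly agreed. Cldn4, another claudin, rose by 3.02 ± 0.25 at 6 months against 0.48 ± 0.31 at E18.5. Fam19a4, a chemokine-like gene, rose by 5.83 ± 0.59 against -0.88 ± 0.55, and Ly6g6c by 5.71 ± 0.74 against 0.93 ± 0.50. Pigr, which carries IgA across epithelium, averaged 16.91 ± 0.11 in 6-month Double and 12.88 ± 1.22 in 6-month WT, and 5.07 ± 1.07 in E18.5 Double and 5.0 ± 0.25 in E18.5 WT. Ltf, the gene of lactoferrin, rose by 5.80 ± 1.03, but its difference of differences (4.08 ± 1.28, limma adjusted p = 0.0456) was lost without any of 9 libraries (all but E18.5 Double replicate 2, E18.5 WT replicate 1, 6-month Double replicate 3 and 6-month WT replicate 3). It was also lost with a term for sex pattern, with the Double and WT libraries alone, under joint quantile normalization, with robust moderation and without the mean-variance trend.

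Of 8 measured liver plasma protein genes, 6 rose and 0 fell at 6 months (all genes 38.1% called). At E18.5, 2 rose and 1 fell (all genes 14.8% called). The difference of differences passed above 0 in 5 and below 0 in none (all genes 10.5% called). Hpx, the heme carrier hemopexin, rose by 3.59 ± 0.42 against 0.62 ± 0.36, and Rbp4, the retinol carrier, by 2.26 ± 0.24 against 0.37 ± 0.24. Itih2, a hyaluronan-binding plasma protein, rose at both ages, by 4.02 ± 0.39 and 1.43 ± 0.28.

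The signalling ligand gene Shh (ENSMUSG00000002633, chr5:28456815-28467256, minus strand) was of the 6-month class. It measured 12.94, 12.36, 12.70 and 12.58 in 6-month Double, against 10.10, 9.94 and 10.28 in 6-month WT. It measured 11.88, 12.02 and 12.07 in E18.5 Double, against 11.95, 12.02 and 11.85 in E18.5 WT. Shh rose by 2.53 ± 0.16 at 6 months against 0.05 ± 0.12 at E18.5, with a difference of differences of 2.48 ± 0.20 (limma adjusted p = 4.43e-07). The E18.5 libraries overlapped. Ptch1, a receptor and target of Hedgehog ligands, was an opposing gene, with -0.64 ± 0.17 at 6 months and 0.62 ± 0.13 at E18.5. Hey1, a target of Notch, changed by -3.11 ± 0.31 at 6 months against -0.52 ± 0.35 at E18.5, and Hes1, another, was opposing (-0.47 ± 0.16 and 0.53 ± 0.13). The calls of Ptch1 and Hes1 were not examined with single libraries left out. Over 32 Wnt, FGF, BMP and Notch genes, 15 fell and 5 rose at 6 months (all genes 38.1% called). At E18.5, 7 fell and 3 rose (all genes 14.8% called). The difference of differences passed above 0 in 5 and below 0 in 9 (all genes 10.5% called).

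Genes of the 6-month class that fell included AT1 and endothelial genes. Fgfr4, a fibroblast growth factor receptor gene (ENSMUSG00000005320, chr13:55152640-55168759, plus strand), measured 3.81, 3.35, 4.94 and 3.35 in 6-month Double, against 7.99, 7.94 and 7.80 in 6-month WT. It measured 4.97, 6.38 and 6.74 in E18.5 Double, against 5.45, 5.73 and 5.6 in E18.5 WT. The fall of -4.05 ± 0.46 at 6 months stood against 0.44 ± 0.44 at E18.5, and the groups overlapped at E18.5. Ndufa4l2, of the respiratory chain family, differed by -3.77 ± 0.56 and 0.52 ± 0.39, and Tmcc2 by -3.85 ± 0.32 and -0.15 ± 0.43. For Ndufa4l2, 2 of the 6-month Double libraries were at the lowest value, so its 6-month size is imprecise. Igfbp2, an AT1 marker, measured 7.63, 8.82, 9.02 and 7.53 in 6-month Double, against 12.74, 12.82 and 10.49 in 6-month WT, and overlapped at E18.5 (-0.08 ± 0.43).

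Of 22 AT1 genes, which belong to the thin gas-exchange cells, 13 fell and 1 rose at 6 months (median -1.21, all genes 38.1% called). At E18.5, 4 fell and 2 rose (median -0.06, all genes 14.8% called). Between the ages 5 passed below 0 and 1 above 0, so for most AT1 genes the ages were not shown to differ. Spock2, a matrix proteoglycan gene, changed by -3.00 ± 0.46 against -0.04 ± 0.24. Ager, the receptor often used to mark AT1 cells, fell at 6 months (-2.05 ± 0.43) and was at -0.63 ± 0.34 at E18.5, with a difference of differences of -1.41 ± 0.59 that missed (limma adjusted p = 0.143). Cav1 and Rtkn2 agreed, with differences of -2.28 ± 0.15 and -0.96 ± 0.20 for Cav1 and -2.69 ± 0.65 and -2.44 ± 0.37 for Rtkn2.

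All 10 measured endothelial markers fell at 6 months, with a median of -2.93, and 3 of 10 fell at E18.5, with a median of -0.88. The difference of differences passed below 0 in 6 of the 10 (all genes 10.5% called). Of 12 epithelial markers, 10 rose and 1 fell at 6 months and 4 rose and 0 fell at E18.5. Beside both lists, 38.1% of all genes were called at 6 months and 14.8% at E18.5. Vwf, the von Willebrand factor gene, measured 8.91, 10.28, 8.15 and 10.01 in 6-month Double, against 12.18, 12.35 and 13.12 in 6-month WT. It measured 7.93, 7.11 and 7.76 in E18.5 Double, against 7.67, 7.25 and 7.13 in E18.5 WT. Pecam1, the gene of CD31, averaged 9.91 ± 0.73 in 6-month Double and 12.83 ± 0.66 in 6-month WT, although these cells were sorted as CD31-. Klf2, a transcription factor of endothelium that is also on the immediate early list, fell with the endothelial markers at 6 months (-2.03 ± 0.20) and differed by 0.92 ± 0.35 at E18.5. The part of endothelial RNA in the 6-month decreases was not tested.

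Immediate early genes, which answer stimuli within minutes and also cell handling, included many whose Double effect differed between the ages. Of 21 measured, 14 fell and 2 rose at 6 months (median -0.82, all genes 38.1% called). At E18.5, 4 rose and 0 fell (median 0.35, all genes 14.8% called). The list means of single libraries overlapped at 6 months, from 11.68 to 12.73 in Double and from 12.62 to 13.32 in WT. They ran from 12.52 to 12.59 in E18.5 Double and from 12.04 to 12.37 in E18.5 WT. The difference of differences passed below 0 in 12 and above 0 in none (all genes 10.5% called). Fosb measured 10.50, 12.02, 11.79 and 12.40 in 6-month Double, against 14.32, 14.42 and 13.14 in 6-month WT. It measured 13.99, 13.79 and 13.75 in E18.5 Double, against 12.74, 13.48 and 13.05 in E18.5 WT. The difference was -2.28 ± 0.41 at 6 months and 0.75 ± 0.25 at E18.5, where the groups did not overlap but the test was missed (limma adjusted p = 0.0594). Fos and Jun fell at 6 months, with differences of -1.35 ± 0.33 and -1.39 ± 0.28, against 0.43 ± 0.21 and 0.35 ± 0.18 at E18.5. Egr2 (-1.19 ± 0.36 and 1.41 ± 0.32) and Nr4a1 (-1.42 ± 0.45 and 0.87 ± 0.26) passed in opposite directions, and the 6-month call of Egr2 was lost without 6-month WT replicate 2 and with a term for sex pattern. Nr4a1 was not examined with single libraries left out. The cells of the ages were isolated in different ways, and age and isolation cannot be told apart.

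**Figure D4:**
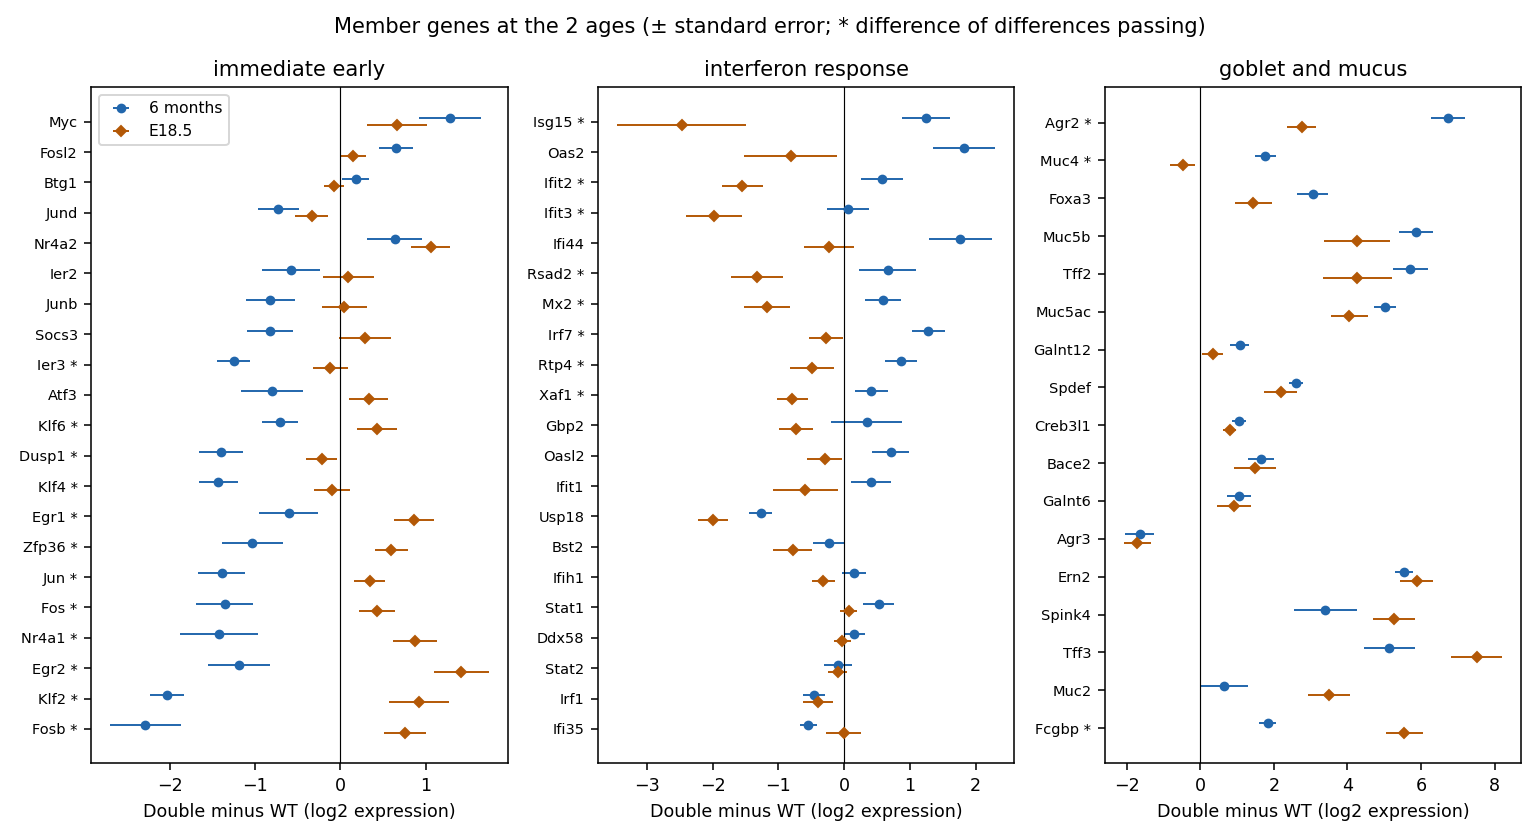
Double minus WT difference (horizontal axis, log2) of every measured member of 3 gene lists at 6 months and at E18.5, with its standard error; an asterisk marks a passing difference of differences. Immediate early genes lie mostly below 0 at 6 months (median -0.82) and above 0 at E18.5 (median 0.35), interferon response genes the other way (0.42 and -0.59), and goblet and mucus genes above 0 at both ages (2.60 and 2.76). Tff2 was at the lowest value in all 3 E18.5 WT libraries, so its E18.5 position is imprecise.

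The E18.5 class held 211 genes, and those lower in Double included leukocyte genes. F13a1 (ENSMUSG00000039109, chr13:36867178-37050244, minus strand), the factor XIII A subunit expressed by macrophages, measured 5.22, 6.40, 4.55 and 5.93 in 6-month Double, against 6.02, 5.57 and 4.93 in 6-month WT. It measured 1.92, 3.52 and 4.18 in E18.5 Double, against 8.19, 8.50 and 8.39 in E18.5 WT. The groups overlapped at 6 months (0.02 ± 0.53) and were far apart at E18.5 (-5.15 ± 0.83, limma adjusted p = 0.00166), with a difference of differences of 5.17 ± 1.02 (limma adjusted p = 0.00242). Ctss, a lysosomal protease, differed by 1.85 ± 0.97 and -4.77 ± 0.86, Adgre1, the macrophage antigen F4/80, by 0.82 ± 0.65 and -4.17 ± 0.66, and Fcrls by 0.81 ± 0.64 and -4.61 ± 0.89. In E18.5 Double, 2 libraries were at the lowest value for Fcrls and 1 each for Ctss and Adgre1, so these E18.5 sizes are imprecise.

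Of 12 measured leukocyte markers, 2 rose and 1 fell at 6 months (median 0.82, all genes 38.1% called). At E18.5, 10 fell and 0 rose (median -2.89, all genes 14.8% called). The difference of differences passed above 0 in 8 of the 12 (all genes 10.5% called). Ptprc, the gene of CD45, averaged 7.73 ± 1.31 in 6-month Double and 7.79 ± 0.57 in 6-month WT, and 3.90 ± 1.72 in E18.5 Double and 6.56 ± 0.35 in E18.5 WT. The 6-month sort selected CD45- cells, while no such gate is named at E18.5, and age and isolation cannot be told apart. Of 21 interferon response genes, 5 rose and 2 fell at 6 months (median 0.42, all genes 38.1% called). The share of the list called at 6 months was not above that of all genes. At E18.5, 6 fell and 0 rose (median -0.59, all genes 14.8% called). The difference of differences passed above 0 in 8 of these genes (all genes 10.5% called). Ifit2, an interferon-induced gene, was at 0.57 ± 0.32 at 6 months and fell at E18.5 (-1.55 ± 0.31). The part of leukocyte RNA in these genes was not tested.

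The club cell gene Scgb1a1 (ENSMUSG00000024653, chr19:9083636-9087958, minus strand), the main secretion of these airway cells, differed by age. It measured 21.19, 19.74, 21.19 and 21.19 in 6-month Double, against 19.26, 18.44 and 20.24 in 6-month WT. It measured 13.36, 12.57 and 12.80 in E18.5 Double, against 15.87, 16.72 and 15.44 in E18.5 WT. At 6 months 3 of 4 Double libraries held the highest value of the scale and the groups overlapped (1.52 ± 0.71, limma adjusted p = 0.115), while at E18.5 Double lay wholly below WT (-3.10 ± 0.33, limma adjusted p = 0.000128). The ages differed by 4.62 ± 0.61 (limma adjusted p = 7.57e-05). The 18 measured club and secretory genes did not move together. At 6 months 7 rose and 1 fell (all genes 38.1% called), and at E18.5 5 rose and 3 fell (all genes 14.8% called). The difference of differences passed in 2 of the 18, above 0 in both, beside 10.5% of all genes. Lyz2, a lysozyme of AT2 cells and macrophages, was at -0.81 ± 0.54 at 6 months and fell at E18.5 (-2.76 ± 0.36). Its difference of differences (1.95 ± 0.53, limma adjusted p = 0.0215) was lost without E18.5 Double replicate 2, E18.5 WT replicate 1 or 6-month WT replicate 3, with the Double and WT libraries alone and with each age's own spread.

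The genes raised in the E18.5 class included Igf2 (ENSMUSG00000048583, chr7:142650766-142666816, minus strand), the imprinted fetal growth factor. It measured 7.46, 5.48, 7.24 and 7.68 in 6-month Double, against 7.56, 7.90 and 7.89 in 6-month WT. It measured 15.95, 17.03 and 15.98 in E18.5 Double, against 13.73, 13.65 and 13.47 in E18.5 WT. Igf2 thus rose by 2.70 ± 0.26 at E18.5 with overlapping groups at 6 months, and the difference of differences was -3.52 ± 0.55 (limma adjusted p = 0.000357). Another imprinted RNA, Meg3, was opposing, with 2.13 ± 0.68 at 6 months and -1.08 ± 0.31 at E18.5. The Meg3 call was lost without 6-month Double replicate 1 or 2 or 6-month WT replicate 1 or 2 at 6 months, and without E18.5 Double replicate 2 or 3 or E18.5 WT replicate 2 or 3 at E18.5. Both Meg3 calls were lost without the mean-variance trend, the E18.5 call with the Double and WT libraries alone, and the 6-month call and the difference of differences with a term for sex pattern. Loxl2, a collagen cross-linking enzyme, was at -1.07 ± 0.53 at 6 months and rose by 3.45 ± 0.45 at E18.5. Casq2, a calcium-storage protein of muscle, was at -0.13 ± 0.84 at 6 months and rose by 3.63 ± 0.47 at E18.5. Slc12a8 and Sgcd rose by 3.82 ± 0.67 and 3.10 ± 0.59 at E18.5, with 2 E18.5 WT libraries at the lowest value for Slc12a8. The difference of differences of Slc12a8 was lost without any of 7 libraries, and that of Sgcd without any of 11. With a term for sex pattern the differences of differences of Casq2, Slc12a8 and Sgcd were lost, and with the Double and WT libraries alone those of Slc12a8 and Sgcd.

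Of 29 measured genes of cytosolic ribosomal proteins, 0 passed limma's test at either age or between the ages. At an unadjusted p under 0.05 there were 3 at 6 months, 0 at E18.5 and 0 between the ages. Their medians were 0.11 at 6 months and -0.06 at E18.5. Of 24 respiratory chain genes, 9 rose and 0 fell at 6 months (median 0.41), beside 38.1% of all genes called and 19.8% called higher. At E18.5, 0 passed (median 0.08, all genes 14.8% called), and 1 had an unadjusted p under 0.05 in limma. The difference of differences passed for Ndufa1 alone (1.40 ± 0.31, limma adjusted p = 0.00504), so the other 8 are not shown to differ between the ages.

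**Figure D5:**
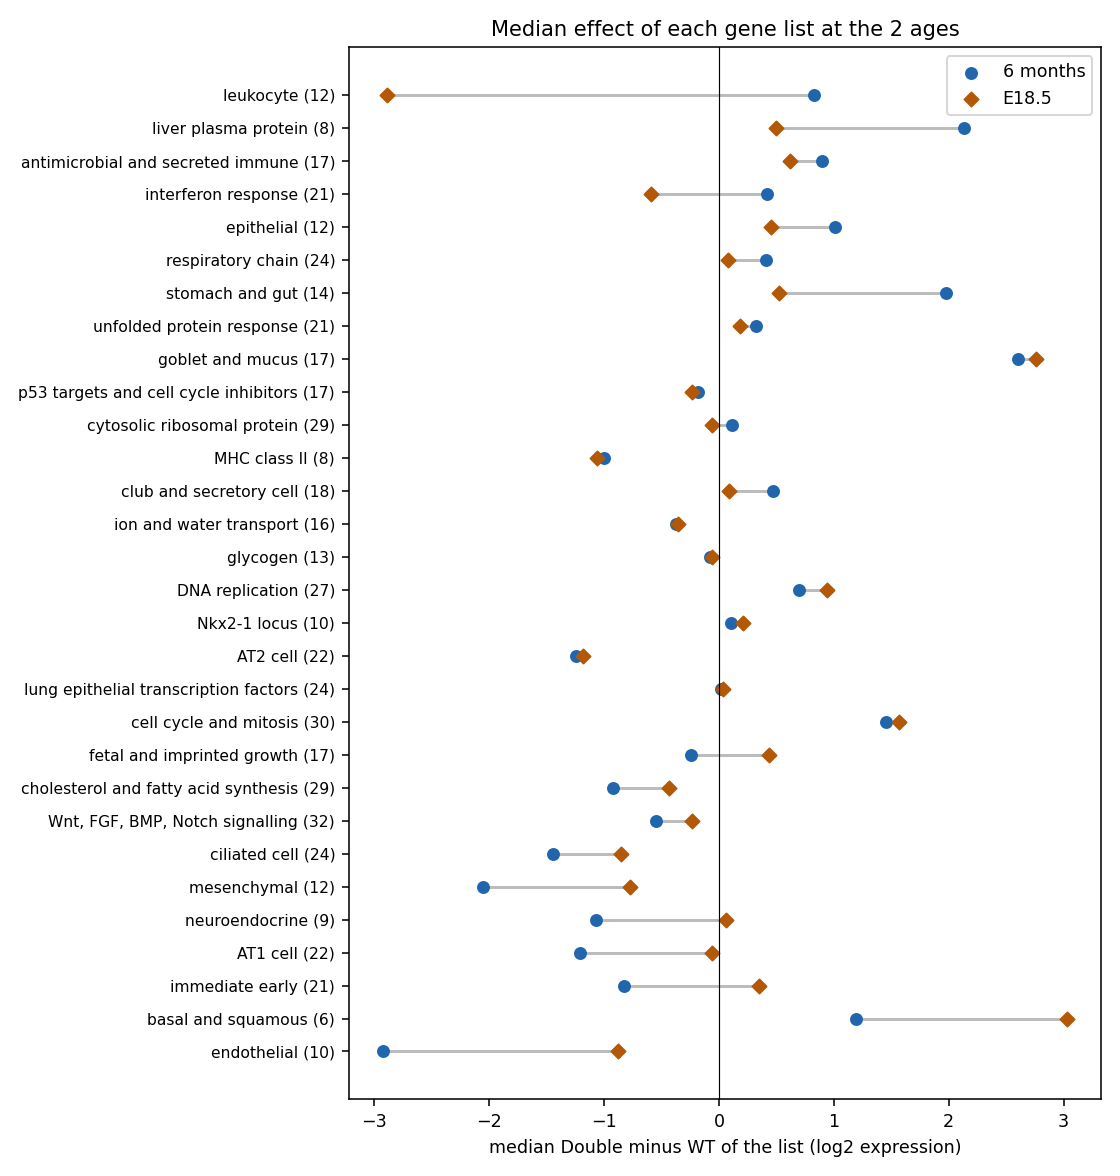
Median Double minus WT difference (log2, horizontal axis) of each gene list at 6 months and at E18.5. Goblet and mucus (2.60 and 2.76) and cell cycle (1.46 and 1.56) medians lie above 0 at both ages, AT2 (-1.24 and -1.19) and ciliated cell (-1.44 and -0.85) medians below 0, and immediate early (-0.82 and 0.35) and leukocyte (0.82 and -2.89) medians on opposite sides.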

How the data were processed

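RNA of lung epithelial cells was measured in 22 libraries of 7 groups, of which the 13 Double and WT libraries at both ages are compared here. RNA was extracted with Trizol, per the labels' protocols. The deposited values are 1 log2 expression value per gene and library, from 1 file per library. From the values, they were taken as quantile-normalized within each age, since all libraries of an age share nearly the same values by rank. STAR, limma and mm9 are named per the submitters' processing notes; no source used here gives versions, roles, library construction, the gene filter or depth. Symbols and GRCm38 positions came from GENCODE, matched on gene ID for 12946 of 13034 genes, and promoters from RefSeq (GRCm38.p6).

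Within each age, Double minus WT was fitted with limma 3.58.1 in R 4.3.3 over all libraries of that age, which share the variance estimate, with a mean-variance trend and Benjamini-Hochberg adjustment over all genes of the age. The difference of differences was fitted in 1 model over 22 libraries and 13034 genes. The threshold was an adjusted p of 0.05, and no filter on low values was applied. A planned count model was not used because the files hold log2 values. The scripts were tested on simulated data. Values after ± are limma standard errors, or SD where said.

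Members and gene lists were chosen with earlier results of these data known. Named genes had a mean of at least 5 in a group at each age: the 5 largest agreeing and opposing changes per direction, the 4 largest single-age changes per direction, up to 3 members per list by difference of differences (or up to 2 agreeing members), and 16 genes always named. Other list members were named after their values were seen, and their calls were not examined under the alternative settings. Some genes chosen by this rule are not reported here. Of 32 gene lists, 31 had measured members; of 8 erythroid genes listed, 0 were measured at both ages. The neuroendocrine list (9 genes) had 1 higher and 2 lower at 6 months and 0 passing at E18.5. The unfolded protein response list (21 genes) had 10 higher and 1 lower at 6 months and 3 higher and 2 lower at E18.5. Beside these 2 lists, 38.1% of all genes were called at 6 months and 14.8% at E18.5. Alternatives were 24 settings: another scale, filters, groups, a sex term, a replicate block and each library left out.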

Additional observations from a re-analysis of the deposited data

Results flagged for a closer look

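The Double effect differed between 6 months and E18.5 in 1372 genes by the difference of differences. In the named genes that passed in opposite directions, this difference (6 months minus E18.5, log2) was above 0 for Apob (8.43), Gif (7.14), Nwd2 (6.76), Slfn2 (5.81), Kng2 (5.64) and Meg3 (3.21). It was below 0 for Upk3b (-6.45), Mfap5 (-5.39), Cys1 (-4.98), Dcn (-4.89), Igfbp4 (-4.89), Igfbp3 (-4.04) and Egr2 (-2.60).

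In the 4 libraries of 6-month Double, 8 of 105 named genes had a library far from the other 3 by Dixon's test at its 95% critical value, and chance gives about 1 in 20. Replicate 1 was low for Acly (13.4) and Casq2 (3.11). Replicate 2 was low for Scgb1a1 (19.7), where the others held the highest value of the scale, and for Ppp1r3a (10.8), and high for Lyz2 (20.2). Replicate 3 was low for Itih2 (10.7). Replicate 4 was low for Pcna (11.7) and high for Cldn2 (10.3). The groups of 3 libraries were not screened with this test.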

How the results depend on the processing

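With the Double and WT libraries alone in the fit, 890 genes passed at E18.5 and 810 in the difference of differences, with 544 agreeing, 33 opposing and 95 in the E18.5 class. Requiring a difference of at least 1 left 2133 genes at 6 months and 1001 at E18.5, with 537 agreeing, 43 opposing, 133 in the E18.5 class and 553 in the 6-month class. A term for sex pattern gave 3256 at 6 months, 911 differences of differences and 561 in the 6-month class. All 4 six-month Double libraries show the female pattern, so sex and genotype are separated there by the WT libraries and the Nkx2.1-GFP/+ libraries. Female-pattern libraries alone, a setting chosen after seeing the data, gave 1939 at 6 months, 75 at E18.5 and 169 differences of differences, with 39 agreeing, 1 opposing, 8 in the E18.5 class and 134 in the 6-month class; these fits hold fewer libraries, with 1 WT library at 6 months assumed to vary like the other groups.

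Leaving out each library in turn gave 3795 to 4959 genes at 6 months, 1137 to 2607 at E18.5 and 960 to 1694 differences of differences. The classes ran from 716 to 1353 agreeing, 46 to 122 opposing, 109 to 328 E18.5 and 604 to 999 six-month genes. Same-numbered Double and WT libraries deviated with correlations of -0.061, -0.103 and 0.128 at 6 months and -0.195, 0.454 and 0.060 at E18.5, so the numbers were not read as pairs. With a replicate block 4415 genes passed at 6 months, 2077 at E18.5 and 1443 in the difference of differences, with 1120 agreeing and 86 opposing; at 6 months the block takes the unpaired Double replicate 4 out of the estimate. The block ended the 6-month calls of Sox9, Mfap5, Pkp1 and H2-Aa and the differences of differences of Sox9, Ltf, Slc12a8 and Isg15, among the genes reported here.

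Signs turned only for differences of differences that did not pass, and the cause was not tested. Joint quantile normalization over both ages gave 0.21 for Sftpc, 0.16 for Sftpb, 0.10 for Mki67 and -0.13 for Tg. For Mki67 the replicate block gave 0.17, the sex term 1.04 and female-pattern libraries 1.11; the last setting gave -0.16 for Esr1 and -0.054 for Muc5ac. Leaving out each library in turn gave -0.45 to 0.40 for Sftpc, -0.47 to 0.047 for Sftpb, -0.70 to 0.61 for Mki67, -0.49 to 0.56 for Tg and -0.13 to 0.70 for Esr1. Over the named genes, 4275 values kept direction and side of the threshold, 376 missed it (129 of them with female-pattern libraries alone, 30 with the sex term) and 25 turned sign. Read depth is unknown, so low values have no counting interval.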

Other observations

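Ion and water transport genes, which set the liquid layer of airways and alveoli, included genes lower in Double at both ages. Of 16 measured, 3 rose and 7 fell in Double at 6 months (all genes 38.1% called) and 1 rose and 6 fell at E18.5 (all genes 14.8% called). Of these genes 7 agreed, beside 8.83% of all genes, and 0 were opposing; among all genes passing at both ages 92.7% kept their direction. The sodium channel subunits Scnn1b and Scnn1g fell at both ages, while Scnn1a and the chloride channel gene Cftr passed at neither. Ano1, a calcium-activated chloride channel gene, was the 1 member of the 6-month class: it measured 13.58, 13, 13.26 and 13.62 in 6-month Double, against 11.38, 11.60 and 10.94 in 6-month WT. It measured 13.58, 13.92 and 14.08 in E18.5 Double, against 13.49, 13.68 and 13.16 in E18.5 WT. Ano1 rose by 2.06 ± 0.22 at 6 months against 0.41 ± 0.17 at E18.5, a difference of differences of 1.65 ± 0.29 (limma adjusted p = 0.000887).

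Of 24 measured transcription factors of lung epithelium, 7 rose and 2 fell at 6 months and 3 rose and 5 fell at E18.5, and 3 agreed, beside 38.1%, 14.8% and 8.83% of all genes. Sox9 and Mycn, factors of the embryonic distal lung tip, were in the 6-month class. Mycn measured 8.29, 7.52, 7.16 and 8.88 in 6-month Double, against 3.93, 5.89 and 5.56 in 6-month WT, a rise of 2.83 ± 0.54, and differed by 0.42 ± 0.20 at E18.5. Sox9 rose by 2.21 ± 0.73 at 6 months (limma adjusted p = 0.033), a call lost without 6-month Double replicate 1 or 4 or 6-month WT replicate 1 or 2, without the mean-variance trend and with a term for sex pattern. The 6-month Sox9 libraries overlapped. Its difference of differences (2.73 ± 0.79, limma adjusted p = 0.0294) was lost without any of 7 of the 13 libraries (E18.5 Double replicate 2 or 3, E18.5 WT replicate 1, 6-month Double replicate 1 or 4 and 6-month WT replicate 1 or 2). The sex term also ended the age differences of Sox9 and Mycn, and the Double and WT libraries alone that of Sox9. Elf5, an ETS factor of lung epithelium, was opposing, with 0.71 ± 0.15 at 6 months and -0.58 ± 0.11 at E18.5, and was not examined with single libraries left out. Of 17 p53 targets and cell cycle inhibitors, 6 rose and 5 fell at 6 months (all genes 38.1% called). At E18.5, 0 rose and 3 fell (all genes 14.8% called). Ccng1 was in the 6-month class (0.86 ± 0.12 against -0.03 ± 0.15).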
